A study of Mus musculus with 6 samples.

Results

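The 3 libraries of cells that received ethanol vehicle, out of 6 mouse libraries in the series, give the profile of the cells without induced Mdm2 deletion. They were chosen by their labels alone. RNA came from stranded sequencing of total RNA depleted of ribosomal RNA. Per the labels, all cells carried floxed Mdm2 alleles on a p53-null background (Mdm2 fl/fl p53-/-) and had been transduced with a retrovirus for CreERT2 with GFP, or for GFP alone. CreERT2 is a Cre recombinase that acts after 4-hydroxytamoxifen, and the labels do not give the vector of each library. One library is labelled T cell lymphoma (6 h of vehicle, RPMI medium), another sarcoma and another fibroblasts from ear punches (both 48 h, in DMEM with non-essential amino acids), all with 10% fetal bovine serum. The lymphoma and sarcoma cells are described as tumour cells in short-term culture. Each labelled cell type had 1 vehicle library, so there were no replicates, and label, medium and exposure time cannot be told apart between the lymphoma library and the others.

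Fibroblasts are the mesenchymal cells that build connective tissue. They secrete fibrillar collagens, fibronectin and proteoglycans, remodel that matrix with metalloproteinases, and respond to platelet-derived, fibroblast and transforming growth factors. Adult fibroblasts keep part of the Hox code that marked their place in the embryo. T cells, in contrast, carry the T cell receptor with its CD3 chains and the signalling kinases Lck and Zap70.

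The library labelled lymphoma held no detectable RNA of the T cell receptor. Cd3d, Cd3e, Cd3g and Cd247, which encode the CD3 chains, and Trac, Trbc1 and Trbc2, the receptor's constant regions, had 0 estimated counts in total in the libraries labelled fibroblast and lymphoma and 3 in the library labelled sarcoma. A count of 0 allows up to 3 counts in a library, which is 0.102 CPM (counts scaled to a common library total) in the library labelled lymphoma. All 3 libraries instead carried fibroblast genes at nearly the same levels, so each is called by its label without that label being taken as its cell type.

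Where 3 values stand in a row, they are those of the libraries labelled fibroblast, then lymphoma, then sarcoma. Levels are given as TPM, a per-length abundance scaled to the same total in every library, that the authors' files list per transcript, summed here per gene. A gene was called expressed at a mean of 1 TPM or more over the 3 libraries. Of 21777 protein-coding genes, which leave out the 13 of the mitochondrial genome, 10897 were expressed, or 50%, and 10720 reached 1 TPM in every library. Their median was 11.7 TPM. Between 1 and 10 TPM lay 4883 of them, between 10 and 100 TPM 5294, between 100 and 1000 TPM 641, and above that 79. Just above the threshold were Gm45844 and the adenylyl cyclase gene Adcy4, at means of 1.01 and 1.00 TPM, and just below it Clip4 and Fgd4, at 0.999 and 0.998 TPM. Gm45844 had 0.675, 1.85 and 0.490 TPM, from 42 estimated counts in total, and passed 1 TPM only in the library labelled lymphoma. A gene near 1 TPM (0.9 to 1.1) rested on a median of 227 estimated counts over the 3 libraries. Total estimated counts were 28967548, 29549223 and 37517726. Counts of expressed members of a gene list are to be read beside the 50% of all coding genes, and those near it set no list apart.

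The summed TPM of some genes was raised by short partial transcripts. Because TPM divides by an effective length, a few counts on a short fragment add a large TPM. A second level was therefore computed, with all of a gene's counts placed on its longest transcript, and it is called the longest-transcript TPM below. In 2173 expressed protein-coding genes (19.9%) the summed TPM was over 1.5 times the longest-transcript TPM, and where the level of such a gene is discussed its longest-transcript mean is given as well. For coding transcripts the lengths in the files were coding lengths without untranslated regions in 92.7% of targets, so counts outside the coding sequence were not included for them.

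The most abundant protein-coding RNA was Spp1 (ENSMUSG00000029304.14, GRCm38 chr5:104435118-104441050, plus strand), which encodes the secreted matrix protein osteopontin. It stood at 8748, 8644 and 10049.6 TPM. A 146-base partial transcript held 4.47%, 4.96% and 5.26% of its counts but 5023, 5088 and 6171 TPM, and the mean longest-transcript TPM of Spp1 was 3895. On that level Lgals1 came first and Spp1 took place 5 among protein-coding genes.

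Lgals1, which encodes the galactoside-binding protein galectin-1, had 7021, 7075 and 7693 TPM. S100a6, a calcium-binding protein gene, had 6867, 6292 and 6853 TPM. Its relative S100a4, often used as a fibroblast gene, had 2826, 2809.96 and 3026 TPM. Both S100 genes and Lgals1 were unaffected by the choice of level. The cellular retinoic acid-binding protein gene Crabp1, a gene of dermal papilla fibroblasts, was 14th with 2152, 2059.8 and 2273 TPM. Of the mitochondrial coding genes, which were ranked apart, mt-Co1 and mt-Co3 stood above it, at means of 2457 and 2236 TPM. The remaining members of the 15 highest were the translation factor gene Eef1a1, 7 ribosomal protein genes (Rpl39, Rpl41, Rps28, Rpl38, Rplp1, Rps29 and Rps21), the actin-sequestering thymosin gene Tmsb10 and Actb. Tmsb10 fell to place 71 on the longest-transcript level, at 942 against 2723 TPM. The 84 genes of cytosolic ribosomal proteins made up 20.1%, 20.1% and 20.2% of the coding TPM. The 10 highest coding genes held 10.2%, 10.00% and 10.4% of it, and the 1000 highest 69.3%, 69.0% and 69.9%.

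**Figure D1:**
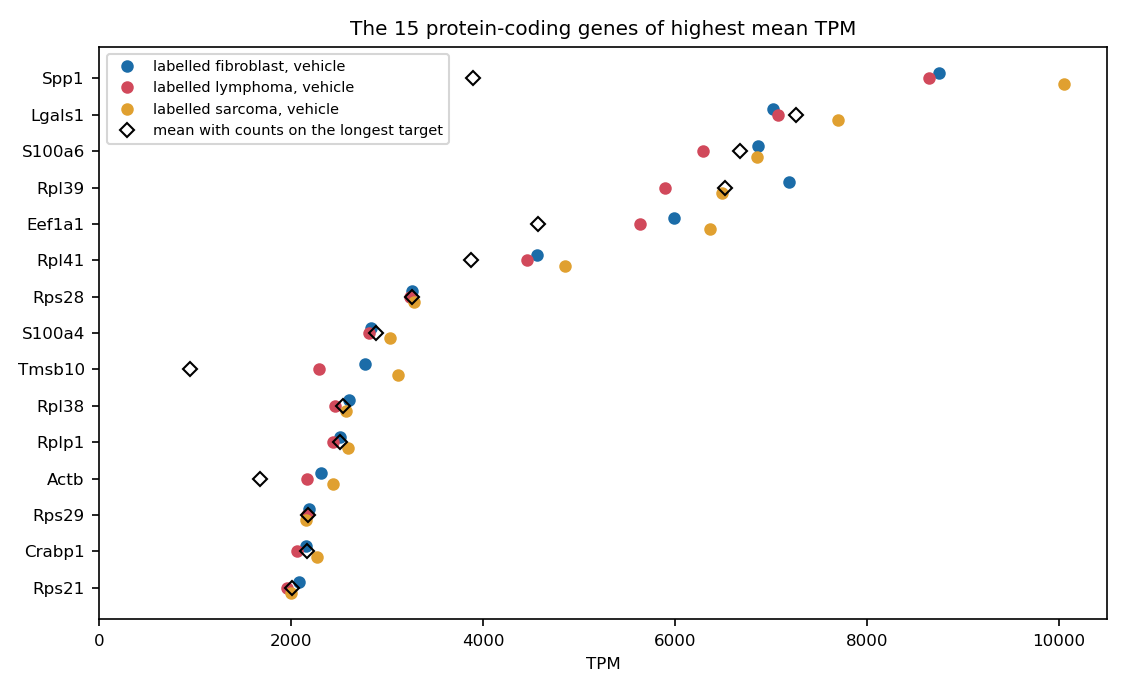
The 15 protein-coding genes of highest mean TPM, leaving out the mitochondrial genome. The TPM of each vehicle library is a filled point on a linear axis and the mean longest-transcript TPM an open diamond. The 3 libraries lie close together in every gene, while the diamonds of Spp1, Eef1a1, Rpl41, Tmsb10 and Actb lie to the left of the points.

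Protein-coding genes held 78.0%, 78.9% and 81.7% of the estimated counts, but only 50.7%, 48.8% and 52.1% of the TPM. Much of the rest belonged to short structural RNAs. Rn7s1 and Rn7s2, 2 copies of the RNA of the signal recognition particle, were listed at identical values (91255, 94265 and 89489.9 TPM each), so the split between them is not measured. Rn7sk, the RNA that holds the elongation factor P-TEFb inactive, had 71777, 70663 and 63458 TPM. Rpph1 and Rmrp, the RNA parts of the ribonucleases P and MRP, had means of 25925 and 15689 TPM. Among genes classed as long noncoding, Gm26917 was highest, with 1757, 2789 and 1667 TPM. It lies at chr17:39843013-39846341, beside AY036118 of the ribosomal RNA locus there. How much of the reads of these genes is ribosomal RNA was not tested. AY036118 came next with 3208, 546 and 139 TPM, and the libraries differed widely in it. Malat1, a nuclear speckle RNA, followed with 949.7, 1077 and 1066 TPM.

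Several highly listed hairpins share sequence with other genes. Of 859 miRNA hairpin genes at 1 TPM or more, 102 lay on the same strand inside an exon of a protein-coding gene, 58 of them in an untranslated region, and the 102 held 46.6% of the hairpin TPM. The highest was Gm26377 (GRCm38 chr9:78478528-78478635, minus strand), with 27340, 25478 and 27437 TPM. It lies in the untranslated region of Eef1a1, itself number 5 of the coding genes by summed TPM. Gm22133 lies in the same way in Ftl1, the ferritin light chain gene. Most coding targets left out the untranslated regions, so reads of such a hairpin and of its host's mRNA cannot be told apart. Gm23935, Gm24245 and Gm24270 are annotated on 3 chromosomes, but the files listed them at the same 3909.7, 8318 and 2301 TPM. Their reference sequences, shown because they are the same letter for letter, are those of GENCODE M21 transcripts on GRCm38 chr16:11144125-11144181 (plus strand), chr4:139338304-139338360 (plus strand) and chr9:56223715-56223771 (minus strand), and no letters are marked by capitals.
Gm23935: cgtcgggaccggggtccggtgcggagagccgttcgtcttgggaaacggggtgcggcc
Gm24245: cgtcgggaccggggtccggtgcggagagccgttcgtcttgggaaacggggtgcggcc
Gm24270: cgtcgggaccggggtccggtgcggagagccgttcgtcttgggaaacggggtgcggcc
No other GENCODE M21 transcript contains these 57 bases on either strand, but sequence outside those transcripts was not searched. Reads of these bases cannot be divided among the 3 loci, and whether they came from any of them was not tested.

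The defining fibroblast genes were high in every library. Vim, the intermediate filament of mesenchymal cells (ENSMUSG00000026728.9, GRCm38 chr2:13573927-13582826, plus strand), had 1512, 1453 and 1664 TPM. Col1a2, the alpha 2 chain of type I collagen (chr6:4504814-4541544, plus strand), had 705.6, 718.6 and 728 TPM. Col3a1, the chain of type III collagen (chr1:45311538-45349706, plus strand), had 542, 533 and 571 TPM. In none of these genes did the highest library exceed the lowest by as much as 2-fold. Pdgfra, the platelet-derived growth factor receptor that marks most fibroblasts (chr5:75152292-75198215, plus strand), had 200.2, 202 and 200.1 TPM, and 105 TPM as the mean on the longest transcript.

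The 16 fibroblast marker genes were chosen with earlier results of these data known. Of them 15 were expressed, with a median of 179.8 TPM beside 11.7 TPM for all expressed coding genes. The proteoglycan gene Lum was the exception, with 32 counts over the 3 libraries, while its relative Dcn had 59.3, 55.6 and 63.0 TPM. Among 16 surface antigens of stromal cells 13 were expressed. Ly6a, which encodes Sca-1, was highest with a mean of 1594 TPM (848 on the longest transcript), ahead of the integrin subunit Itgb1, Thy1, Cd9, the hyaluronan receptor Cd44 and Vcam1. Cd34, an antigen of dermal and other tissue fibroblasts, had 64.3, 61.6 and 68.4 TPM. Fap, Icam1 and Dpp4 were the 3 below 1 TPM.

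Few markers of T cells, endothelium, skeletal muscle, leukocytes or epithelium were expressed, beside 50% of all coding genes. In bulk RNA, fewer cells of a type and less RNA per cell cannot be told apart. Of 19 T cell markers only Thy1, which fibroblasts also express, passed 1 TPM, with 132, 122.6 and 122.5 TPM. The other 18 summed to 0.871, 0.775 and 0.979 TPM, most of it from Lck at 0.645, 0.591 and 0.675 TPM, and 11 of the 19 had 0 counts in every library. None of 8 endothelial markers and none of 12 skeletal muscle markers was expressed. Pecam1 and Cdh5, which encode endothelial adhesion proteins, had 17 and 1 counts over all 3 libraries. Myod1, Myog and Pax7, the regulators of the muscle lineage, had 0.

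Of 13 leukocyte and myeloid markers, Cd14 and Cd68 were expressed, at means of 10.2 and 2.47 TPM. Ptprc, the pan-leukocyte CD45 gene, had 4 counts and Spi1, the myeloid factor PU.1, had 0. Of 10 epithelial markers only the keratin genes Krt18 and Krt19 were expressed, at 3.38 and 3.10 TPM, with Cdh1 at 1 count. The 11 smooth muscle and pericyte markers included 5 expressed genes, or 45.5%, near the 50% of all coding genes. Acta2, the smooth muscle actin of activated fibroblasts as well, had 49.3, 51.1 and 58.5 TPM, whereas Myh11, the smooth muscle myosin, had 9 counts over the 3 libraries.

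Genes of related mesenchymal lineages were present in part. Of the bone, cartilage, adipocyte and tendon lists, 33.3%, 16.7%, 40% and 16.7% were expressed, beside 50% of all coding genes. Of 9 bone markers 3 were expressed, Spp1, the highest coding gene of all, Runx2 and Phex. Sox9 and Sox5, regulators of cartilage, had means of 5.20 and 3.09 TPM, but the cartilage matrix genes Acan and Col2a1 had 14 and 36 counts. Of 10 adipocyte genes 4 were expressed, led by the fatty acid-binding protein gene Fabp4 at 11.7 TPM, while Adipoq and Plin1 had 1 count each. Runx2 was expressed at 6.01 TPM (2.91 on the longest transcript) without the bone factor Sp7 (26 counts over the 3 libraries). Phex had 10.3 TPM summed but 0.872 on the longest transcript, below the threshold. The tendon factor Scx had 5.28, 4.57 and 5.41 TPM, beside 3 counts of Tnmd.

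**Figure D2:**
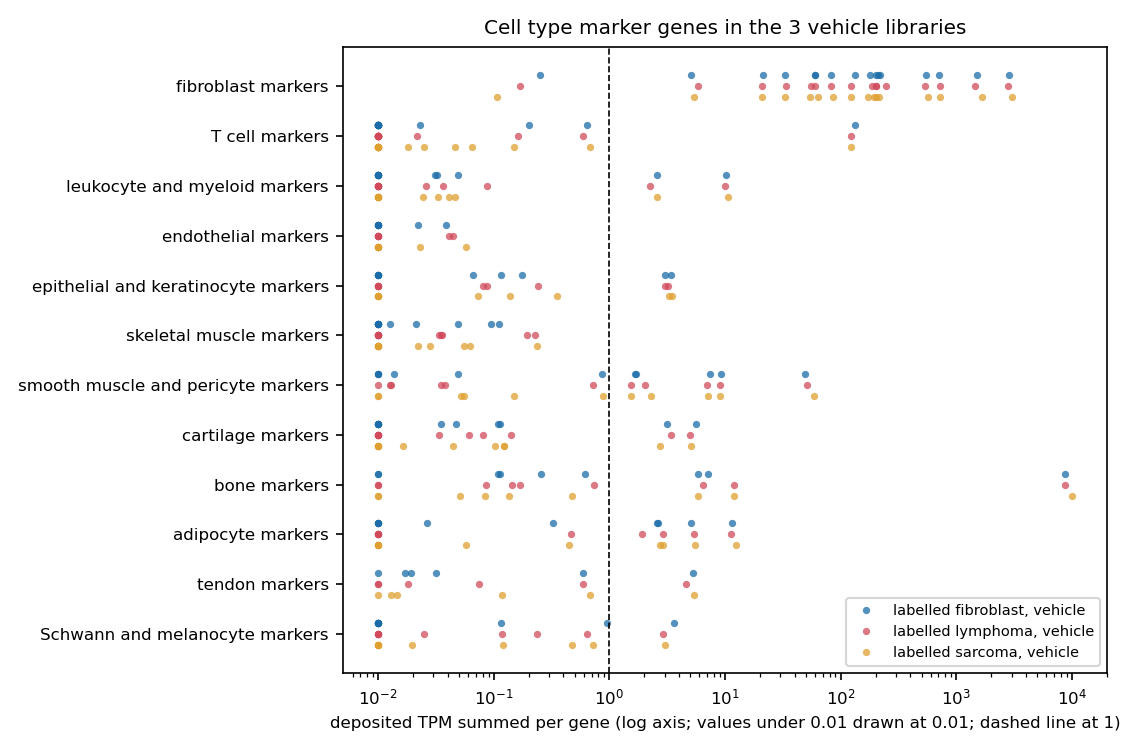
Cell type marker genes by list, each point being the summed TPM of 1 gene in 1 vehicle library on a log axis, with values under 0.01 drawn at 0.01 and a dashed line at 1 TPM. Fibroblast markers lie to the right of the line in all 3 libraries except Lum, and of the T cell markers only Thy1 does.

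Position genes gave a pattern shared by the 3 libraries. Hox genes encode homeodomain factors whose order in 4 clusters follows the body axis, with high paralogue numbers acting toward the tail and the ends of limbs. Of 39 Hox genes 17 were expressed (43.6%, beside 50% of all coding genes), 7 in cluster A, 3 in B, 3 in C and 4 in D. On the longest-transcript level 16 were expressed, without Hoxa3, which was at 0.497 TPM. By paralogue number, 6 of 12 genes of numbers 1 to 4 were expressed, 6 of 11 of numbers 5 to 8, 4 of 7 of numbers 9 and 10, and 1 of 9 of numbers 11 to 13.

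The highest Hox gene by summed TPM was Hoxa10, with 29.3, 21.8 and 23.8 TPM, but its mean longest-transcript TPM was 4.71. Hoxd8 had 21.2, 22.3 and 25.6 TPM, and 9.67 on the longest transcript. Hoxc6 had 18.2, 18.3 and 16.95 TPM and was the highest on the longest transcript, at 17.8. Hoxa9 came next with 14.5, 11.1 and 14.6 TPM. Hoxa10 and Hoxa9 were lowest in the library labelled lymphoma and Hoxd8 was highest in the library labelled sarcoma, with differences that have no replicate check.

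Means of the other expressed members were 7.07 TPM for Hoxa7, 5.33 for Hoxc4, 4.32 for Hoxa11, 4.09 for Hoxc5 and 3.92 for Hoxb2. Hoxb3, Hoxa6, Hoxb4, Hoxd4, Hoxd10, Hoxd9, Hoxa5 and Hoxa3 lay between 1.51 and 2.57 TPM. Hoxa11 was the only expressed gene of numbers 11 to 13, and Hoxa13 and Hoxd13, genes of the limb tips and the hind body, had 5 and 4 counts over the 3 libraries. In cluster B, Hoxb2, Hoxb3 and Hoxb4 were expressed, while Hoxb5 to Hoxb9 had between 0 and 7 counts. Hoxa3 was at 3.65 TPM in the library labelled fibroblast and 0.444 and 0.449 in the others, a spread of TPM that its estimated counts, 46, 36 and 46, did not share.

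**Figure D3:**
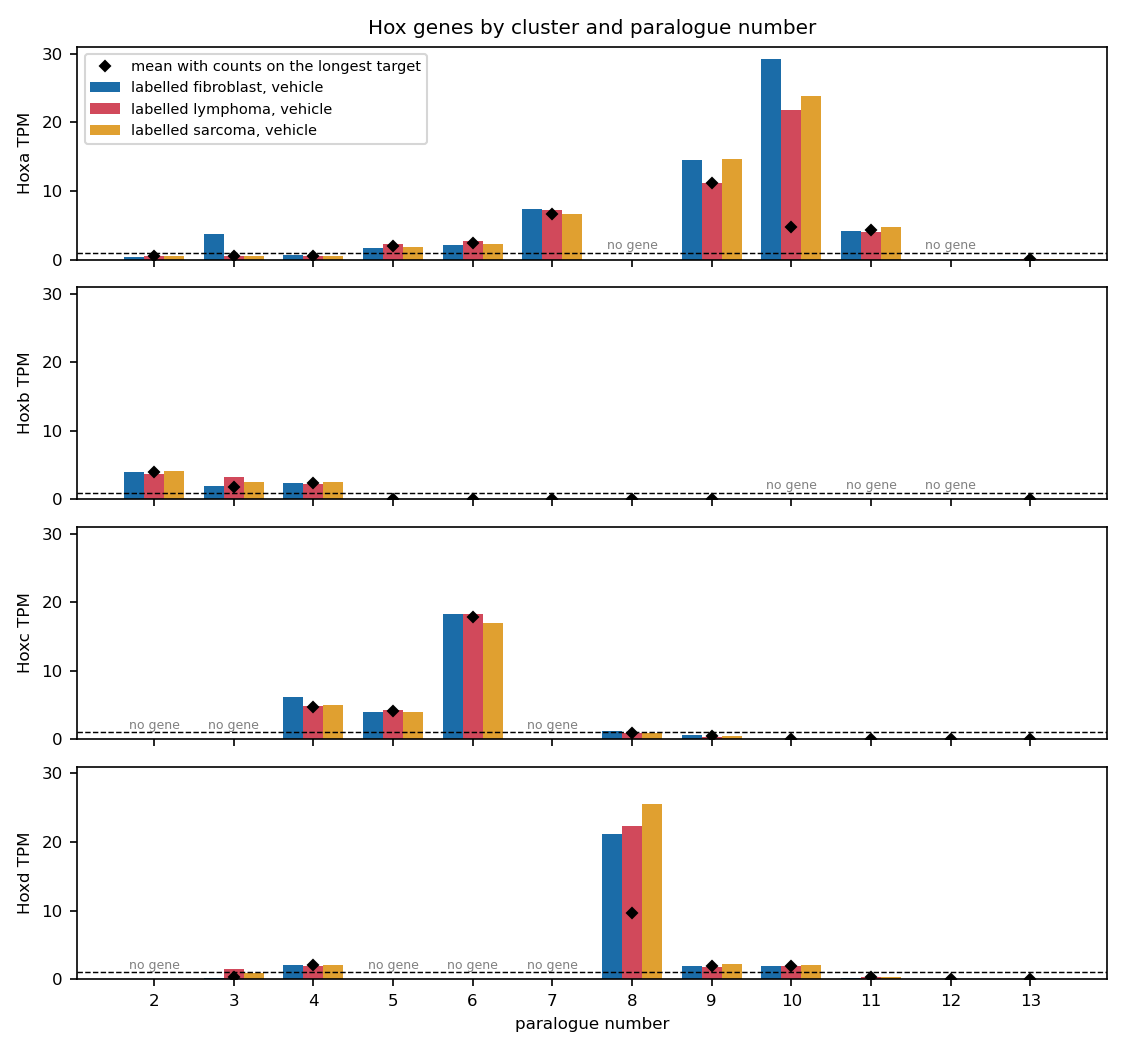
Hox genes by cluster (panels) and paralogue number (horizontal axis), with a bar for the summed TPM of each vehicle library on a linear axis, a diamond for the mean longest-transcript TPM and a dashed line at 1 TPM; paralogue number 1 is not drawn. Hoxa10, Hoxd8, Hoxc6 and Hoxa9 stand highest, only Hoxa11 passes the line among numbers 11 to 13, and the diamonds of Hoxa10 and Hoxd8 lie far below their bars.

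The noncoding RNAs Hotair of cluster C and Hottip of cluster A had 0 counts in all 3 libraries. Hoxa11os, antisense to Hoxa11, had a mean of 7.25 TPM, and Hotairm1, of cluster A, 5.40 TPM (3.29 and 2.15 on the longest transcript). Since the authors' strand setting is not given in the sources used here, reads of the antisense genes and their partners cannot be told apart.

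Among 20 factors of limb, body wall and axis 9 were expressed, or 45%, near the share of all coding genes. Tbx15, a T-box factor of skin and skeletal mesenchyme, was far above the rest, with 46.5, 44.5 and 45.2 TPM. Tbx18, its close relative, had 7.39, 6.94 and 8.09 TPM. The hindlimb factors Tbx4 and Pitx1 had 0 counts, and the forelimb factor Tbx5 had 9 over the 3 libraries. En1, which marks a dermal fibroblast lineage of the back, had 3.32, 2.60 and 3.62 TPM.

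Of 30 head and pharyngeal arch factors 9 were expressed, none above 10 TPM. Foxc1 and Foxc2, forkhead factors of head mesenchyme and somites, had means of 5.62 and 4.62 TPM, followed by Dlx1 at 4.49, Six4 at 2.87 and Msx1 at 2.85 TPM. Dlx6 differed most between the libraries, with 1.90, 0.198 and 0.986 TPM, from 91, 10 and 63 estimated counts. Alx1, Alx4, Tfap2b and Otx2, genes of the front of the head, had 0 counts.

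General mesenchymal transcription factors were mostly present, 31 of 41 (30 on the longest transcript). The highest were Tcf4, Prrx1, Runx1, Tead2, Nfix and Zeb2. Prrx1, a homeobox factor of limb and skin mesenchyme, had 71.5, 63.6 and 57.1 TPM. Runx1 had 48.6, 63.0 and 48.0 TPM, but 8.02 on the longest transcript. Twist1 and Twist2, repressors of mesenchymal differentiation, had means of 17.9 and 11.5 TPM. Tcf21 had 0 counts. Of 15 markers of dermal fibroblast subsets 9 were expressed, or 60%, beside 50% of all coding genes. The median of these 9 was 2.90 TPM, and 6 of the 15 had a mean of 2 TPM or more. Crabp1 and Ly6a were highest, followed by Lrig1 (22.2, 23.8 and 24.9 TPM), Ntn1, Pi16 and Apcdd1. Corin, a dermal papilla protease gene, had 0 counts, and Sox2 had a mean of 1.54 TPM.

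Receptors differed by family in how many members were expressed: 22 of 54 receptor tyrosine kinases, 11 of 14 TGF-beta and BMP receptors, 26 of 34 cytokine and death receptors, 28 of 67 G protein-coupled receptors, 16 of 24 Wnt and Notch receptors, 13 of 26 integrins and 21 of 49 nuclear receptors. These stand beside the 50% of all coding genes, and the lists were assembled by hand.

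Behind Pdgfra, the highest receptor tyrosine kinases were Fgfr1, a receptor for fibroblast growth factors, Axl, a receptor for Gas6, and the collagen receptor Ddr2. Fgfr1 had 96.0, 118.8 and 112.4 TPM, and 29.8 on the longest transcript. Axl had 79.3, 81.0 and 87.6 TPM, with a longest-transcript mean of 79.9. On that level Axl was second to Pdgfra. Ryk had a mean of 48.8 TPM and Pdgfrb, the second platelet-derived growth factor receptor, 21.3, 20.7 and 20.96 TPM. Kit, the stem cell factor receptor, had 2 counts over the 3 libraries, and Ntrk2 and Erbb4 had 0.

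Bmpr1a, a type I receptor for bone morphogenetic proteins, had 111.7, 116.5 and 130.1 TPM but a longest-transcript mean of 21.96. Tgfbr3 and Tgfbr2, a co-receptor and the type II receptor of TGF-beta, had means of 47.7 and 39.6 TPM. Both kept nearly the same value on the longest transcript, at 45.6 and 38.3 TPM.

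Il1rl1, which encodes ST2, the receptor of interleukin-33, was the highest cytokine receptor gene, with 575, 542 and 575 TPM and 112 on the longest transcript. Its transcripts fall into 3 coding lengths. The 1014-base form, which encodes the secreted receptor, held 76.4%, 75.1% and 76.0% of its estimated counts. The 1704-base form, which encodes the membrane receptor, held 11.6%, 12.3% and 11.7%. The order was the same in all 3 libraries. The rest fell on a partial transcript of 195 bases, which alone contributed 402, 382 and 403 TPM. Kallisto divides reads of the part that the forms share by likelihood, so these shares are estimates.

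Il6st, the shared signalling chain of the interleukin-6 family, had 276.5, 290.2 and 289.9 TPM, and 59.8 on the longest transcript. Its partners Osmr and Lifr were expressed at means of 32.0 and 15.4 TPM. Il4ra had a mean of 81.2 TPM, and 13.9 on the longest transcript. The receptors Tnfrsf12a and Tnfrsf1a, for TWEAK and tumour necrosis factor, had means of 50.1 and 30.2 TPM, the second being 19.2 on the longest transcript.

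The lysophosphatidic acid receptor gene Lpar1 led the G protein-coupled receptors with 241, 222 and 242 TPM, and 49.995 on the longest transcript. Ptgfr, the prostaglandin F receptor, followed with 27.3, 27.6 and 29.2 TPM. Smo, the Hedgehog signal transducer, had a mean of 20.9 TPM. The chemokine receptors Cxcr3 and Cxcr4 had 0 counts, while Ackr3, a scavenging receptor for Cxcl12, had 13.4, 12.5 and 12.9 TPM. Among Wnt and Notch receptors the highest after Ryk were Notch2, Fzd2, Lrp6 and Lrp5, at means of 26.7, 18.6, 15.9 and 15.8 TPM.

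Integrin genes were led by the beta 1 subunit gene Itgb1, at 251, 232 and 280 TPM (149 on the longest transcript), and by Itgav, at 144, 136 and 139 TPM (38.9 on the longest transcript). Itga5, the partner of Itgb1 in the fibronectin receptor, had a mean of 35.3 TPM. The leukocyte integrin subunits Itgal and Itgam had 4 and 1 counts over the 3 libraries. Among nuclear receptors, the glucocorticoid receptor gene Nr3c1 had 87.0, 72.7 and 65.6 TPM, with a longest-transcript mean of 31.8. The oestrogen receptor gene Esr1 had 60.1, 62.4 and 59.2 TPM and was the highest on the longest transcript, at 60.5. The progesterone receptor gene Pgr had 0 counts.

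The fibrillar chains Col1a2 and Col3a1 led the collagens. The 44 collagen chain genes, of which 18 were expressed (40.9%, beside 50% of all coding genes), held 3.03%, 3.06% and 3.03% of the coding counts. After Col1a2 and Col3a1 came the microfibrillar chain Col6a3, the basement membrane chain Col4a1, Col6a1 and Col1a1, at means of 272, 209, 208 and 179.8 TPM. Col6a3 was at 138 TPM and Col4a1 at 156 on the longest transcript, below Col6a1 and Col1a1. Col1a1 was below Col1a2, its partner in type I collagen, in every library, also on the longest transcript, where Col1a2 had 547 TPM. The cartilage chain Col2a1 and the hypertrophic cartilage chain Col10a1 had 36 and 37 counts.

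Of 55 matrix glycoprotein and proteoglycan genes found in the annotation, 43 were expressed. Below Spp1, the collagen-binding protein gene Sparc had 400.4, 366 and 444 TPM. Bgn, a small proteoglycan, had a mean of 224 TPM, and Fn1, fibronectin, had 219, 247 and 194 TPM. Fn1 was highest in the library labelled lymphoma. Efemp1 and Tgfbi followed at means of 215 and 203 TPM. Eln, elastin, had 59 counts over the 3 libraries.

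Of 43 matrix protease and inhibitor genes 35 were expressed. Serpinh1, the collagen chaperone HSP47, had 1498, 1431 and 1603 TPM, and 491 on the longest transcript. The lysosomal protease gene Ctsl had 809.5, 742 and 855 TPM. Mmp2, a gelatinase, had 128, 124 and 142 TPM. Its activator Mmp14 had 100.4, 66.5 and 172.8 TPM, a spread that vanished on the longest transcript (66.9, 64.7 and 66.5 TPM). Mmp9, the other gelatinase, stayed below 1 TPM, with 282 counts over the 3 libraries.

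Among 57 growth factor genes found, 31 were expressed, or 54.4%, near the share of all coding genes. Igfbp6, which binds insulin-like growth factor 2, was highest with 200.1, 198.8 and 217.8 TPM, followed by Hdgf. Csf1, the macrophage growth factor, had 165, 151 and 168 TPM. Fgf7, a fibroblast product that acts on epithelia, had 121, 103 and 103 TPM. Angptl2 and Ptn had means of 96.9 and 88.0 TPM, and Vegfa, the endothelial growth factor, 80.0, 75.3 and 78.3 TPM (45.2 on the longest transcript). In contrast, Igf1 had 3 counts over the 3 libraries, Igf2 had 0 and Gas6 had 2.

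Of 31 TGF-beta family ligands and antagonists 15 were expressed, or 48.4%, near the share of all coding genes. Secreted binding proteins and modulators led the list. Fstl1, a follistatin-like protein gene, had 221, 215 and 230 TPM. Grem1, a BMP antagonist, had 51.6, 49.3 and 55.05 TPM, and Fst, which binds activin, a mean of 30.4 TPM. The ligands were lower: the means of Tgfb3, Tgfb1, Inhba and Bmp4 were 7.55, 7.34, 4.51 and 4.13 TPM. On the longest transcript Tgfb1 was at 4.24 TPM, below Inhba.

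Only 6 of 33 Wnt ligands and modulators were expressed. Dkk2, an antagonist of Wnt co-receptors, led with 76.8, 77.5 and 79.4 TPM. Dkk3 had a mean of 32.6 TPM, and Rspo2, which strengthens Wnt signals, 14.9, 15.2 and 14.2 TPM. Wnt5a and Wnt10b, at 10.2 and 3.01 TPM, were the only 2 Wnt genes of the list above 1 TPM. The antagonist Dkk1 had 0 counts.

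Of 50 chemokine, cytokine and complement genes 31 were expressed. Ccl2, which attracts monocytes, had 437, 435 and 477 TPM. Mif, Ccl7 and Cxcl1, the last a neutrophil attractant, had means of 263, 124 and 79.1 TPM. The complement protease gene C1s1 had 48.8 TPM and the alarmin gene Il33 32.2 TPM (16.9 on the longest transcript). Il1b, Osm and Ccl20 had 0 counts, and Tnf and Il1a had 4 each over the 3 libraries.

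Ligands and receptors were then set side by side for 64 textbook pairs, a list drawn up after the values had been seen. Both partners were expressed in 30 pairs, the ligand alone in 23, the receptor alone in 9 and neither in 2, with the same counts on the longest-transcript level. Pairs with both partners included Il33 and Il1rl1, Pdgfa or Pdgfc with Pdgfra, Hgf and Met, Wnt5a and Ror2, Dkk2 and Lrp6, and Cxcl12 and Ackr3. Il33 had a mean of 32.2 TPM beside 564 TPM for Il1rl1, or 16.9 and 112 TPM on the longest transcript. Most estimated counts of Il1rl1 lay on the form that encodes the secreted receptor, as given above.

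Several ligands without their listed receptor are known to act on blood, vascular or nerve cells. Csf1 had a mean of 161 TPM and its receptor Csf1r, a gene of macrophages, 0.0395 TPM. Ccl2 had a mean of 449.7 TPM and Ccr2 0 counts. Kitl, with a mean of 18.3 TPM, faced Kit at 0.00310 TPM. Vegfa had 77.9 TPM and Kdr, its endothelial receptor, 0.00573 TPM, whereas its other listed receptor, Flt1, was expressed at 4.25 TPM (2.996 on the longest transcript). The neurotrophin gene Bdnf had a mean of 18.2 TPM while Ntrk2 had 0 counts. Pairs with the receptor alone were Axl without Gas6, Pdgfrb without Pdgfb and Pdgfd, Igf1r without Igf1 and Igf2, Osmr without Osm, Tnfrsf1a without Tnf and Il11ra1 without Il11. The pair of Fgfr1 with Fgf2 was also one of these, but Fgf1, the other listed ligand of Fgfr1, was expressed at 11.2 TPM. The culture serum can hold such ligands, and proteins were not measured.

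**Figure D4:**
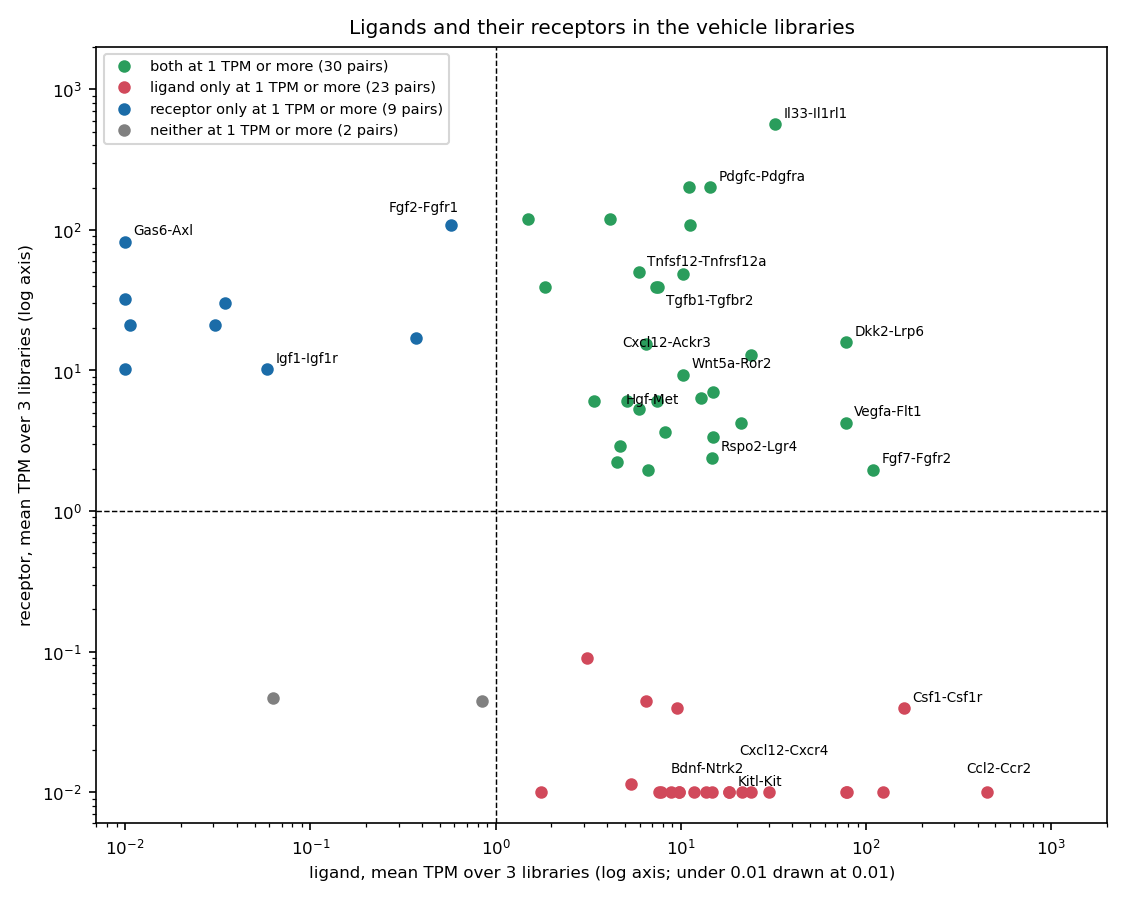
Mean TPM of the ligand (horizontal) against the mean TPM of the receptor (vertical) for 64 pairs, both on log axes with values under 0.01 drawn at 0.01 and dashed lines at 1 TPM. The 30 pairs with both partners expressed fill the upper right field, and the 23 with the ligand alone lie along the bottom right, among them Csf1 with Csf1r and Ccl2 with Ccr2.

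All 26 genes of the proliferation list were expressed in cells that had only received vehicle, beside 50% of all coding genes. The list also holds an inhibitor of the cell cycle, Cdkn1a, so the count alone does not measure proliferation. Mki67, the proliferation antigen, had 52.4, 52.0 and 55.6 TPM. Top2a, the mitotic topoisomerase, had 115.1, 107.7 and 115.8 TPM, and Pcna a mean of 194 TPM. Ccnd1 had 89.6, 93.7 and 96.3 TPM. The cell cycle inhibitor gene Cdkn1a, a p53 target, was among the lowest of the list, at 2.84, 2.03 and 1.24 TPM from 58, 44 and 34 estimated counts. Cdkn2a, which encodes p16 and p19Arf, had 21.6, 21.5 and 20.9 TPM.

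Mdm2 itself, the ubiquitin ligase that holds p53 down, had 9.41, 9.16 and 9.49 TPM. Its relative Mdm4 had 14.9, 15.8 and 15.4 TPM. Trp53, labelled as null, was listed at 11.7, 9.58 and 10.3 TPM, and the files do not resolve which exons these counts cover. Trp63 stayed below 1 TPM, with 120 counts over the 3 libraries, and Trp73 had 0.

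Of 30 genes listed as contractile and cytoskeletal 29 were expressed, beside 50% of all coding genes. The list also holds Lgals1 and S100a6, genes of a galactoside-binding and a calcium-binding protein. Its count is therefore not one of cytoskeletal genes alone. After Lgals1, S100a6, Tmsb10, Actb and Vim, the thymosin gene Tmsb4x had 1544, 1433 and 1544 TPM. Of 25 imprinted genes 12 were expressed, or 48%, near the share of all coding genes. They were led by Gnas at a mean of 392 TPM (119 on the longest transcript). Igf2r, the receptor that clears insulin-like growth factor 2, had 40.9, 40.6 and 43.1 TPM. H19 had 0.586, 0.549 and 0.711 TPM, beside 0 counts of Igf2. The Y-linked genes Ddx3y, Uty, Eif2s3y and Kdm5d were expressed in all 3 libraries, at means of 23.9, 12.2, 9.12 and 2.94 TPM. Ddx3y and Uty were at 10.9 and 3.41 TPM on the longest transcript. Xist, the RNA of the inactive X chromosome, was at 0.0629, 0.0754 and 0.0601 TPM. All 3 libraries thus carried the same Y-linked genes.

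The libraries were last compared with each other, on CPM after TMM scaling over genes that averaged 5 CPM or more in the pair. Between the libraries labelled lymphoma and fibroblast, 3 genes were at least 2-fold higher and 2 lower in the former, or 0.0462% of 10823. Between those labelled sarcoma and fibroblast, 2 were higher and 7 lower in the former, or 0.0835% of 10778. Between those labelled sarcoma and lymphoma, 1 was higher and 12 lower in the former, or 0.120% of 10798. These were 17 different genes by identifier, and 3 were protein-coding. None of the 436 tested genes of the lists above was among the 17. The hairpins Gm23935, Gm24245 and Gm24270 were among those lower in sarcoma than in lymphoma. They share 1 sequence and the same counts, so they are not 3 separate measurements.

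The spread was larger than counting noise alone. The SD of the log2 ratios of coding genes was 0.12, 0.12 and 0.14 in the pairs lymphoma against fibroblast, sarcoma against fibroblast and sarcoma against lymphoma. Per gene, the median chi-square for equal shares over genes with at least 50 counts was 0.909, 1.17 and 1.29, against 0.455 for counting noise alone. That reference leaves out the error of assigning reads to transcripts, so these values do not decide how the libraries are related, and the files were kept as 3 samples. No p-value between labels was possible with 1 library each.

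The 3 protein-coding genes were Nap1l1, Eif3j2 and Gm20388. Nap1l1, a histone chaperone gene, had 1058, 1110 and 196 estimated counts. The ratio of sarcoma to lymphoma was 0.137 (95% exact interval 0.117 to 0.159, counting error only). Eif3j2, a translation factor subunit gene, was higher in the library labelled sarcoma, at 5.26 times the library labelled lymphoma (4.15 to 6.75). Its near-identical copy Eif3j1 was lower there, at 14.5 TPM against 25.3 and 23.4, so the division of reads between the copies is uncertain. Gm20388 had 8.32 and 17.3 CPM in the libraries labelled fibroblast and lymphoma.

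Several of the largest ratios belonged to genes annotated as ribosomal RNA or lying at a ribosomal RNA locus. CT010467.1, annotated as ribosomal RNA, had 842955, 185693 and 75102 counts. AY036118, on the minus strand of the ribosomal RNA locus on chromosome 17, had 159477, 28713 and 9241. How much of its reads is ribosomal RNA was not tested. All genes annotated as ribosomal RNA together took 2.91%, 0.631% and 0.201% of the counts, without AY036118, which is classed as long noncoding. Gm26917 and Gm42418, long noncoding genes beside or overlapping AY036118, were highest in the library labelled lymphoma instead. They had 366958, 613829 and 464557 counts, and 29567, 39850 and 26086. The mitochondrial ribosomal RNAs mt-Rnr1 and mt-Rnr2 were lowest in the library labelled sarcoma, at 0.257 and 0.380 times the library labelled lymphoma. Rnu3a (ENSMUSG00000106147.1), a U3 small nucleolar RNA gene, was lowest in the library labelled fibroblast, with 157 counts against 1688 and 2080. It was 10.3 times as high in the library labelled lymphoma as in that labelled fibroblast, the largest ratio of that pair. A second gene listed as Rnu3a, at a mean of 323 CPM, had a log2 ratio of only 0.130 in that pair. Rnu3b1 to Rnu3b4, each at 242 CPM, had 0.307. How reads were divided among these U3 genes was not tested. The hairpin gene Mir6236 had 3494, 4878 and 664 counts, and its ratio of sarcoma to lymphoma, 0.106, was the farthest from 1 in that pair. The part that ribosomal RNA removal had in these differences was not tested.

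Smaller differences reached a few coding genes. Cebpb, a transcription factor gene of inflammatory and adipocyte programmes, was 1.60 times as high in the library labelled sarcoma as in that labelled lymphoma (1.53 to 1.68). Ncl, nucleolin, and Anp32b were 0.560 and 0.507 times as high in the library labelled lymphoma as in that labelled fibroblast. In the bulk of the coding genes the SD over the 3 libraries was a median of 7.04% of the mean at 1 to 10 TPM, 5.23% at 10 to 100 TPM and 5.10% above that.

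**Figure D5:**
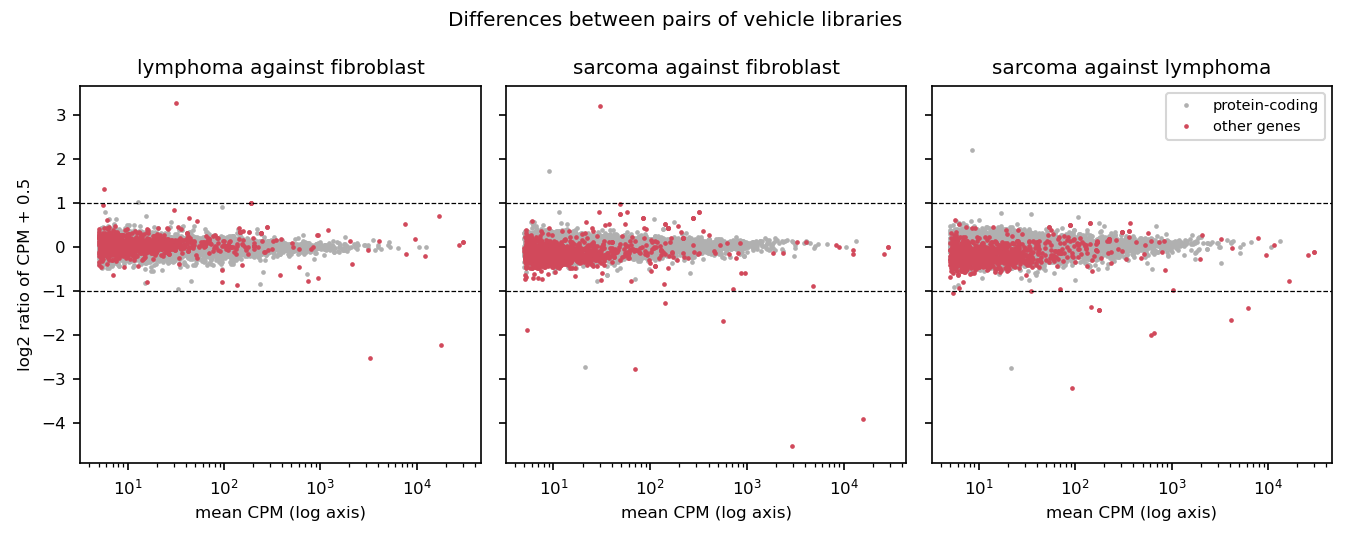
Log2 ratio of TMM-scaled CPM plus 0.5 against their mean (log axis) for the 3 pairs of vehicle libraries, with protein-coding genes in grey, other genes in red and dashed lines at 2-fold. Nearly all genes lie between the lines, and those outside number 5, 9 and 13 from left to right.

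Of the 486 expressed genes of the lists, 9 had a highest TPM at least 2 times the lowest. On the longest-transcript level 2 of these 9 still did, Dlx6 and Cdkn1a, both below 3 TPM. The other 7, among them Mmp14, Hoxa3 and Gli2, did not reach 2 times on that level.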

How the data were processed

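RNA from the 3 vehicle libraries was described from the deposited transcript tables. The authors obtained estimated counts and TPM per transcript with kallisto 0.43.0 on GRCm38, per the submitters' processing notes. The deposited effective lengths (another column of the authors' files) were used for the longest-transcript TPM. Libraries were stranded TruSeq libraries of total RNA, depleted with Ribo-Zero Gold, per the labels' protocols. Neither strand setting nor transcript set is given in the sources used.

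The 76055 transcripts were joined by identifier to GENCODE M21 (GRCm38). Of these 75049 matched, in 35856 genes, and 1006 holding 0.393% to 0.403% of the counts were left out. TPM and estimated counts were summed per gene and counts rounded. Levels under 1 TPM were not called expressed. Protein-coding genes held about 50% of the TPM, so rescaling over them multiplies their levels by 1.98. Library pairs were compared as ratios of TMM-scaled CPM + 0.5 (edgeR 4.0.16, R 4.3.3), with 95% exact intervals that cover counting error only. No test between labels was run, since each label has 1 library. Alternatives used DESeq2 1.42.0 size factors, other thresholds, log2(TPM + 1), no filter, a 20 CPM filter, each library left out, and, chosen after seeing the data, the longest-transcript TPM and transcripts of at least 200 bases. The pair script was tested on simulated data.

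Members and the 37 gene lists were chosen with earlier results of these data known. Named genes are, by mean TPM, the 15 highest protein-coding and the 10 highest long noncoding and 10 highest other noncoding genes (the main ones are printed), the 6 highest of each list, defining markers at any level, expressed Hox genes, the 5 largest ratios in each direction per pair, 3 genes on each side of the threshold, the Mdm2 and p53 family and sex chromosome genes. Others named from the lists were chosen after their values were seen. A few genes of these lists are not reported here.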

Additional observations from a re-analysis of the deposited data

How the results depend on the processing

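The number of expressed genes, 13760, was 15109 at 0.5 TPM, 12206 at 2 TPM, 13128 when every library had to pass, and 13466 and 12028 on the longest transcript and on transcripts of at least 200 bases. Without each library in turn it lay between 13699 and 13811. Counts per list stayed within 1.5 times in all 37 lists on both of these transcript settings and without each library. At 0.5 TPM, and on TPM rescaled over coding genes, 3 lists (T cell, tendon, and Schwann and melanocyte markers) rose past that, and at 2 TPM the integrins fell past it. The counts of genes at least 2-fold apart, 5, 9 and 13 for lymphoma against fibroblast, sarcoma against fibroblast and sarcoma against lymphoma, were the same with DESeq2 size factors. They were 17, 20 and 20 on log2(TPM + 1), 1, 2 and 3 in coding genes only, and 27, 34 and 32 without a filter on low counts, and the first was 3 at 20 CPM. Depth limits genes near 1 TPM, and the summed TPM of genes with short partial transcripts is uncertain by more than the spread between libraries. No paired analysis was possible because the labels carry no replicate numbers and each labelled cell type has 1 vehicle library.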
